A study of Mus musculus with 20 samples.

Results

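Gluconeogenesis and the sensing of glucose by the liver are represented here by 9 genes: *Pck1*, *G6pc* and *Fbp1* for the gluconeogenic enzymes, *Slc2a2* for the glucose transporter of the hepatocyte, *Gckr*, *Pfkfb3* and *Pklr* for the control of glycolysis, *Pdk4* for the gate between pyruvate and the mitochondrion, and *Ppargc1a* for transcriptional control. They were chosen by symbol, from their textbook roles, as 9 of the 37681 genes in each table of read counts. All 9 were among the 15578 genes that passed the filter on low counts, set at 5 reads or more in 5 or more of the 10 libraries of any of 6 tables.

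Livers of 10 male mice, 12 weeks old, were used, of the strain labelled C57/BL6 and named C57/B6J in the growth protocol. The 5 IL-1β treated mice had received 20 µg/kg of the inflammatory cytokine IL-1β, and the 5 control mice, called untreated, had received saline, in both cases 4 hours before the liver was taken. RNA of each mouse was made into a poly-A selected library for the Illumina HiSeq and another for the Ion Torrent Proton, and each platform's reads were aligned with STAR, with GSNAP and with STAR followed by Bowtie2, giving 6 tables of 10 libraries. The libraries held between 10568530 and 12008799 counted reads on Illumina and between 12199528 and 16439683 on Ion Torrent. The mice carried no genetic change named in the labels, and whether they were fed or fasted is not given in the sources used here.

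In gluconeogenesis the liver builds glucose from lactate, alanine and glycerol. *Pck1* encodes the cytosolic phosphoenolpyruvate carboxykinase that commits oxaloacetate to the pathway, *Fbp1* the fructose bisphosphatase that reverses a step of glycolysis, and *G6pc* the catalytic subunit of glucose-6-phosphatase, which releases free glucose in the last step. Glucose leaves and enters the hepatocyte through GLUT2, the product of *Slc2a2*, while glucokinase, which traps it inside, is held in the nucleus by the regulatory protein that *Gckr* encodes. Fasting hormones raise transcription of the pathway through cyclic AMP and the coactivator PGC-1α, encoded by *Ppargc1a*.

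With IL-1β, 5 of the 9 genes fell (*G6pc*, *Slc2a2*, *Pklr*, *Ppargc1a* and *Gckr*), 1 rose (*Pfkfb3*), and *Pck1*, *Fbp1* and *Pdk4* did not pass the test. *G6pc* fell to 12.6% of its untreated level and *Slc2a2* to 18.4%, whereas *Pck1*, the other widely used marker of gluconeogenesis, stood at 80.1% with groups that overlapped. A gene was called at an adjusted p below 0.05 in edgeR's quasi-likelihood test on the Illumina STAR counts, adjusted with Benjamini-Hochberg over all tested genes. Of all 15578 genes, 45.7% were called in the same fit, 22.9% as lower and 22.7% as higher, so a call alone sets none of the 9 genes apart. The same 6 genes were called, in the same direction, in each of the other 5 tables, where 47.5% (Illumina GSNAP), 47.4% (Illumina STAR + Bowtie2), 42.1% (Ion Torrent STAR), 46.4% (Ion Torrent GSNAP) and 46.7% (Ion Torrent STAR + Bowtie2) of all genes were called. The median log2 fold change of the 9 genes was -0.56, beside a median of 0 over all tested genes and a median absolute change of 0.47. In bulk liver RNA, fewer cells of a type and less RNA per cell cannot be told apart.

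**Figure D1:**
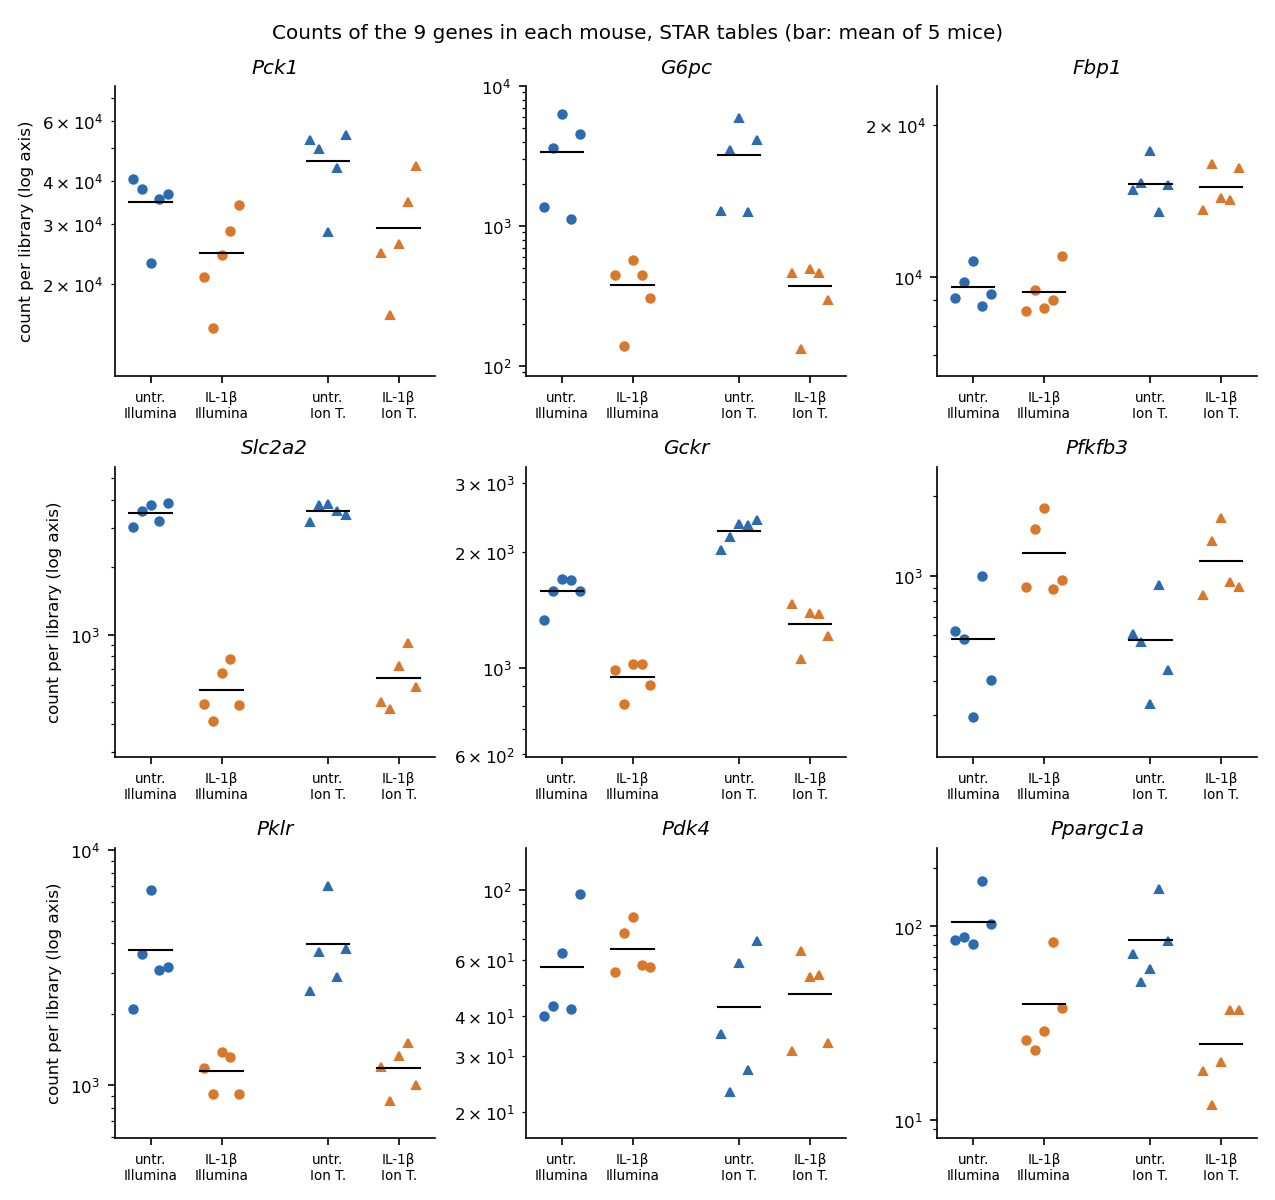
Read counts of each gene in each mouse (y axis, log scale, reads per library) in the Illumina STAR table (circles) and the Ion Torrent STAR table (triangles), untreated in blue and IL-1β treated in orange, with black bars at the mean of 5 mice. *G6pc*, *Slc2a2*, *Gckr* and *Pklr* show groups that do not overlap on either platform, while the points of *Pck1*, *Fbp1* and *Pdk4* overlap.

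The enzyme of the last step changed most among the 9 genes. On Illumina with STAR, *G6pc* (chr11:101228875-101239217, plus strand, NCBIM37) had 1361, 3606, 6342, 1124 and 4571 reads in the untreated mice UNT_9574, UNT_9575, UNT_9576, UNT_9580 and UNT_9584. In the IL-1β treated mice ILB_9577, ILB_9578, ILB_9579, ILB_9582 and ILB_9583 it had 446, 139, 569, 443 and 305 reads. The lowest untreated mouse stood above the highest treated one, although untreated mice differed among themselves by 5.64-fold. The log2 fold change was -2.99 ± 0.458 (SE, 5 against 5 mice, edgeR adjusted p = 8.10e-05), and it lay between -3.03 and -2.94 over the 6 tables. On Ion Torrent with STAR the untreated counts ran from 1256 to 5929 and the treated counts from 133 to 496.

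*Pck1* (chr2:172978549-172984774, plus strand), which catalyses the entry step, behaved differently. Its untreated counts were 40634, 37996, 22970, 35478 and 36622, in the same order of mice. Its IL-1β treated counts were 20912, 14858, 24282, 28600 and 34163. By count, all treated mice lay below the 4 highest untreated mice, but untreated mouse UNT_9576 fell in the middle of the treated range. In TMM-normalised CPM (counts scaled to a common library total), treated mouse ILB_9583 stood at 3440, above the highest untreated mouse, UNT_9584, at 3403. On that scale UNT_9576 (1972) lay above ILB_9578 (1465) alone of the treated mice. The log2 fold change of -0.32 ± 0.205 did not pass the test (edgeR adjusted p = 0.228), and the other tables gave values down to -0.50 with edgeR adjusted p from 0.101 to 0.212. On Ion Torrent the counts were 52986, 49667, 28290, 43733 and 54831 in untreated and 24658, 16251, 26170, 34684 and 44365 in treated mice, with UNT_9576 again the lowest of its group.

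*Fbp1* (chr13:62966113-62989642, minus strand), the enzyme between these steps, varied little within groups. Untreated mice had 9075, 9775, 10770, 8760 and 9261 reads and treated mice 8552, 9413, 8667, 9006 and 11007. Both groups covered nearly the same range. Its log2 fold change was 0.15 ± 0.106 with an edgeR adjusted p of 0.285, and it lay between 0.13 and 0.15 over the tables. The sign of this small value depended on the scaling of the libraries, since it was 0.02 in edgeR without TMM and -0.03 from the unscaled counts used with the rank-sum test.

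Set against each other within a library, the enzymes changed unequally. The log2 ratio of *Pck1* to *G6pc*, from CPM (counts scaled to a common library total) plus 0.5, was 3.62 ± 1.32 in untreated and 6.08 ± 0.638 in IL-1β treated mice (SD, n = 5 each), a difference of 2.46 (two-sided exact permutation test, p = 0.00794, the smallest that 5 against 5 mice can give, adjusted over 3 pairs to 0.0119). The ratio ran from 1.86 to 4.97 in untreated and from 5.40 to 6.78 in treated mice, without overlap. The log2 ratio of *G6pc* to *Fbp1* went from a mean of -1.78 in untreated to -4.73 in treated mice, a difference of -2.95 with the same exact p and adjusted p. For *Pck1* against *Fbp1* the difference of -0.50 did not pass the exact permutation test (p = 0.119, adjusted 0.119, n = 5 each), yet leaving out untreated mouse UNT_9576 moved it to -0.68 and past the threshold (adjusted p = 0.0159). With all 10 mice, the calls of the 3 pairs were the same in the other 5 tables, in which no mouse was left out.

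**Figure D2:**
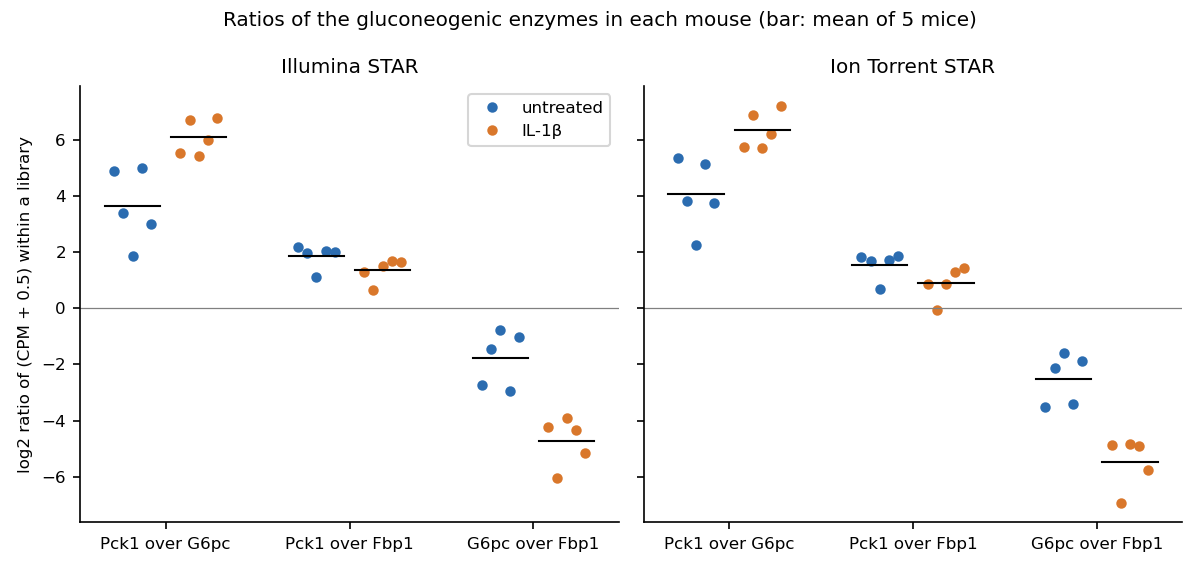
Log2 ratios of CPM plus 0.5 between pairs of gluconeogenic enzymes within each library (y axis), per mouse, in the Illumina STAR (left) and Ion Torrent STAR (right) tables, untreated in blue and IL-1β treated in orange, with bars at the mean of 5 mice. Both ratios with *G6pc* separate the groups, from 3.62 to 6.08 on average for *Pck1* over *G6pc* on Illumina, and the ratio of *Pck1* to *Fbp1* does not.

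The sequences before the start sites of 5 of the genes are shown because *Pck1* and *G6pc* belong to 1 pathway and changed unequally, and because *Slc2a2*, *Pklr* and *Ppargc1a* fell with *G6pc*. Each run is the 150 bases before a RefSeq start site (from RefSeq promoter windows of GRCm38.p6), found once, without mismatch, on the NCBIM37 chromosome named beside it and printed on the strand of the gene. Capitals mark the half-site of the cyclic AMP response element (ACGTCA) or the TATA box (TATAAA).
Pck1 (chr2:172978424-172978573, plus strand): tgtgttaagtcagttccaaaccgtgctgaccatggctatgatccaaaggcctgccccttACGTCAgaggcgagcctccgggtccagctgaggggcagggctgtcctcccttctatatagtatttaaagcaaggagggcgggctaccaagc
G6pc (chr11:101228880-101229029, plus strand): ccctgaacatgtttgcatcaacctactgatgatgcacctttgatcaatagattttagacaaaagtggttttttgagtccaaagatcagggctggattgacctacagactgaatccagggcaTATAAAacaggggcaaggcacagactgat
Ppargc1a (chr5:51958965-51959114, minus strand): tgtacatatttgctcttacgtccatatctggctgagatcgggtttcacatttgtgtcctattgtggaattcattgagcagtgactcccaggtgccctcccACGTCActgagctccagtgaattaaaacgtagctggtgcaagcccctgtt
Slc2a2 (chr3:28596675-28596824, plus strand): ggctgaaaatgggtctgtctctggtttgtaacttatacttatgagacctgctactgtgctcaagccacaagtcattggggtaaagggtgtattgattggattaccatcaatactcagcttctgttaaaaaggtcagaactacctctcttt
Pklr, downstream start (chr3:88940395-88940544, plus strand): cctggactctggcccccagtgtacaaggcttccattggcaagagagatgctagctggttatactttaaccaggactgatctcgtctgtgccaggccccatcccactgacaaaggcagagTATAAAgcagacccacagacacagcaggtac

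The half-site ACGTCA lay 91 to 86 bases before the start of *Pck1* and 50 to 45 bases before that of *Ppargc1a*, of which only the second was called, and on the opposite strand 62 to 57 bases before the upstream start of *Pfkfb3*, the gene that rose. That upstream start, at chr2:11475556, lies outside the annotated gene (chr2:11393057-11423728, minus strand). TATAAA lay 29 to 24 bases before the start of *G6pc* and 31 to 26 bases before the downstream start of *Pklr*. These starts lie 155 and 481 bases inside the annotated genes. On both strands of the 250 bases before a start, the half-site was present in 6.47% and the TATA box in 12.4% of 32851 RefSeq promoter windows. The E-box CACGTG, held by 6.02% of windows, was found 53 to 48 bases before the downstream start of *Pfkfb3*. The C/EBP motif TTGCNNAA (9.56%) was found in *Gckr* alone of the 9 genes, 240 to 233 bases before its start. The FOXO motif GTAAACA (3.17%), the NF-kB motif (0.14%) and the HNF4 motif (0.384%) were in none of the 11 windows of the 9 genes. These 3 motifs were sought only as exact strings, of 7, 10 and 9 letters. With shares this low, absence from 11 windows was likely beforehand and sets the 9 genes apart in nothing. Sites that differ from a string by any letter were not sought, so their absence was not tested. The matches found describe letters in a window and carry no measurement of binding.

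The transporter gene fell to 18.4% of its untreated level, with little spread among untreated mice. *Slc2a2* (chr3:28596825-28627278, plus strand) had 3015, 3563, 3806, 3204 and 3851 reads in untreated mice. It had 491, 413, 676, 778 and 484 reads in IL-1β treated mice. The groups lay far apart. The untreated mice spread by only 1.28-fold and the treated mice by 1.88-fold. Expression changed by a log2 fold of -2.44 ± 0.168 (SE, edgeR adjusted p = 3.19e-08), with -2.47 to -2.30 over the 6 tables, and its error was below that of *G6pc*.

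Among the genes that govern entry into glycolysis, *Gckr* fell moderately and *Pfkfb3* rose. *Gckr* (chr5:31599954-31629673, plus strand) had 1336, 1587, 1704, 1691 and 1585 reads in untreated and 993, 810, 1028, 1028 and 906 in treated mice. The groups did not overlap, and the change was the smallest of those called, with a log2 fold change of -0.56 ± 0.105 (edgeR adjusted p = 0.000509), or 68.0% of the untreated level. *Pfkfb3* (chr2:11393057-11423728, minus strand) encodes an inducible enzyme that makes the fructose bisphosphate isomer that activates phosphofructokinase and inhibits the enzyme encoded by *Fbp1*. It had 619, 576, 295, 994 and 404 reads in untreated and 904, 1501, 1803, 892 and 967 in treated mice. Untreated mouse UNT_9580 overlapped the treated group, and the other 4 untreated mice lay below it. This was a log2 fold change of 1.25 ± 0.283 (edgeR adjusted p = 0.00204), a 2.38-fold rise. The call was lost with the study's rank-sum test (adjusted p = 0.110), which called 38.4% of all genes. That test ran on counts without TMM, so test and scaling changed together. With edgeR without TMM the call was kept (adjusted p = 0.00438). In TMM-normalised CPM, UNT_9580 (88.4) lay above ILB_9577 (85.7) alone of the treated mice.

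Downstream, *Pklr* (chr3:88940064-88950706, plus strand), which encodes the pyruvate kinase of liver and red cells and whose transcription is known to follow glucose supply, fell to 34.5%. Untreated mice had 2109, 3597, 6729, 3080 and 3187 reads and IL-1β treated mice 1177, 911, 1382, 1320 and 912. Every treated mouse lay below every untreated mouse, and untreated mouse UNT_9576 stood above the rest of its group, as it did for *G6pc*. On the log2 scale the change was -1.54 ± 0.244 (edgeR adjusted p = 0.000112), with -1.61 to -1.54 over the tables. *Hcn3* on the opposite strand shares 711 of the 3236 exonic bases of *Pklr* in the annotation, and had at most 2 reads in any Illumina STAR library.

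*Pdk4* (chr6:5433351-5446309, minus strand), a kinase that switches off pyruvate dehydrogenase and is strongly induced by fasting, had few reads. Untreated mice had 40, 43, 63, 42 and 97 reads and treated mice 55, 73, 82, 58 and 57. Mouse UNT_9584 held the highest count of all 10 and widened the untreated range over the whole treated one. The log2 fold change was 0.35 ± 0.255 (edgeR adjusted p = 0.288), and without mouse UNT_9584 it was 0.67 and passed the test (adjusted p = 0.0129). On Ion Torrent with STAR this mouse also had the highest *Pdk4* count, at 69 reads. Across genes, the 2 libraries of this mouse deviated least alike from their group means, with a correlation of 0.249. The other 9 mice had 0.591 to 0.736. The paper reports a shifted Ion Torrent read-length distribution for this sample. The part of this mouse in the value for *Pdk4* was not tested beyond leaving it out.

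The coactivator gene *Ppargc1a* (chr5:51845488-51958964, minus strand) was also of low count. Untreated mice had 85, 88, 81, 171 and 103 reads and IL-1β treated mice 26, 23, 29, 83 and 38. By count, treated mouse ILB_9582 overlapped the untreated group by 1 mouse on Illumina with STAR. In TMM-normalised CPM it stood at 8.23, above UNT_9574 (7.08), UNT_9575 (7.49) and UNT_9576 (6.95) and below UNT_9580 and UNT_9584. On Ion Torrent the counts were 72, 52, 60, 156 and 84 against 18, 12, 20, 37 and 37, and the groups were apart. On the log2 scale the change was -1.23 ± 0.330 on Illumina (edgeR adjusted p = 0.00643) and -1.61 ± 0.352 on Ion Torrent (adjusted p = 0.00130), both with STAR.

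Overlap between the groups was judged on the deposited counts, without TMM scaling. By these counts 4 of the 9 genes had groups apart on Illumina with STAR (*G6pc*, *Slc2a2*, *Gckr* and *Pklr*), where 33.6% of all tested genes did. By count, *Ppargc1a* joined them in each of the other 5 tables, in which 35.0% (Illumina GSNAP), 34.6% (Illumina STAR + Bowtie2), 31.3% (Ion Torrent STAR), 33.8% (Ion Torrent GSNAP) and 33.7% (Ion Torrent STAR + Bowtie2) of all genes had groups apart. In TMM-normalised CPM, its groups were apart only in the Ion Torrent STAR table. Treated mouse ILB_9582 stood at 8.21 on Illumina with GSNAP, where the lowest untreated mouse had 7.21. On Ion Torrent with GSNAP these values were 4.22 and 4.19. No gene of the 9 had a platform-by-treatment term past the threshold in edgeR with any aligner, in a fit of both platforms with the mouse as block. With STAR these terms, Ion Torrent minus Illumina in log2 fold change, ran from -0.32 for *Ppargc1a* to 0.13 for *Slc2a2*, with 1 unadjusted p below 0.05 (*Pck1*, term -0.17, adjusted p = 0.696). Over all genes 0.00642% were called for this term with STAR, 0.0642% with GSNAP and 0.077% with STAR + Bowtie2.

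**Figure D3:**
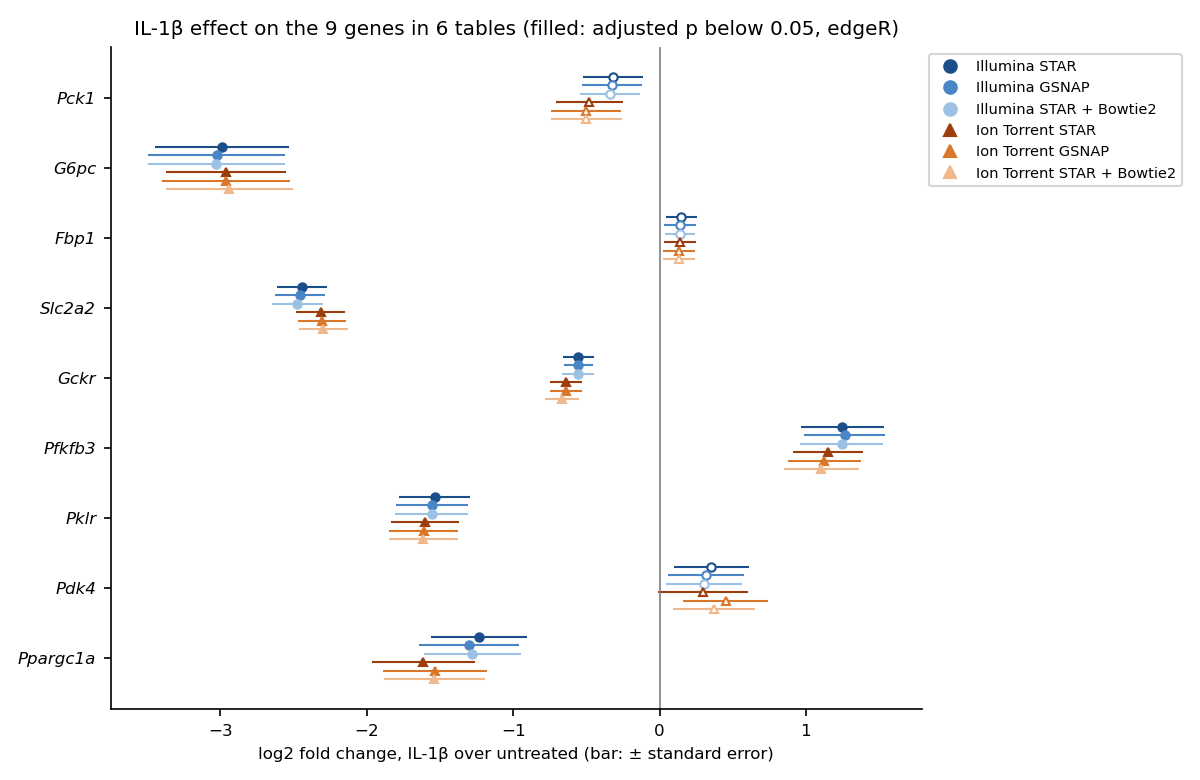
Log2 fold change of IL-1β treated over untreated (x axis) with its standard error for each gene (y axis) in 6 tables, Illumina as blue circles and Ion Torrent as orange triangles, filled where the edgeR adjusted p was below 0.05. *G6pc*, *Slc2a2*, *Pklr*, *Ppargc1a* and *Gckr* lie below 0 and *Pfkfb3* above it in all 6 tables, and the markers of *Pck1*, *Fbp1* and *Pdk4* are open.

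Divided by exon length, the levels reordered with treatment. The level is given as TMM-normalised CPM per kb of annotated exon, mean ± SD over 5 mice on Illumina with STAR. In untreated liver *Pck1* led with 883 ± 175, followed by *Fbp1* with 488 ± 39.5, and neither overlapped its next neighbour. On Ion Torrent with STAR these 2 genes did overlap in untreated liver, with *Pck1* as low as 626 and *Fbp1* as high as 793. *G6pc* (123 ± 80.3), *Slc2a2* (111 ± 14.7) and *Pklr* (101 ± 46.3) had overlapping ranges, as did *Pklr* and *Gckr* (68.6 ± 7.98). *Pfkfb3* came far lower with 7.16 ± 3.37. *Pdk4* (1.43 ± 0.675) and *Ppargc1a* (1.39 ± 0.525) overlapped at the bottom of the order, and their means stood the other way on Ion Torrent with STAR (0.927 and 0.981). With IL-1β *Pck1* (708 ± 222) and *Fbp1* (541 ± 66.7) overlapped, and on Ion Torrent with STAR the mean of *Fbp1* (754 ± 89.1) was above that of *Pck1* (730 ± 288). *G6pc* dropped from the third place to the seventh with a level of 15.5 ± 6.67, overlapping *Pfkfb3* (17.0 ± 5.93), which in turn overlapped *Slc2a2* (20.4 ± 5.59). *Gckr* held the third place at a level of 46.6 ± 4.56, above *Pklr* at 34.7 ± 6.72, with ranges that overlapped although *Gckr* was higher in 5 of 5 mice. *Ppargc1a* was last with 0.592 ± 0.373, below *Pdk4* with 1.83 ± 0.347 and without overlap.

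**Figure D4:**
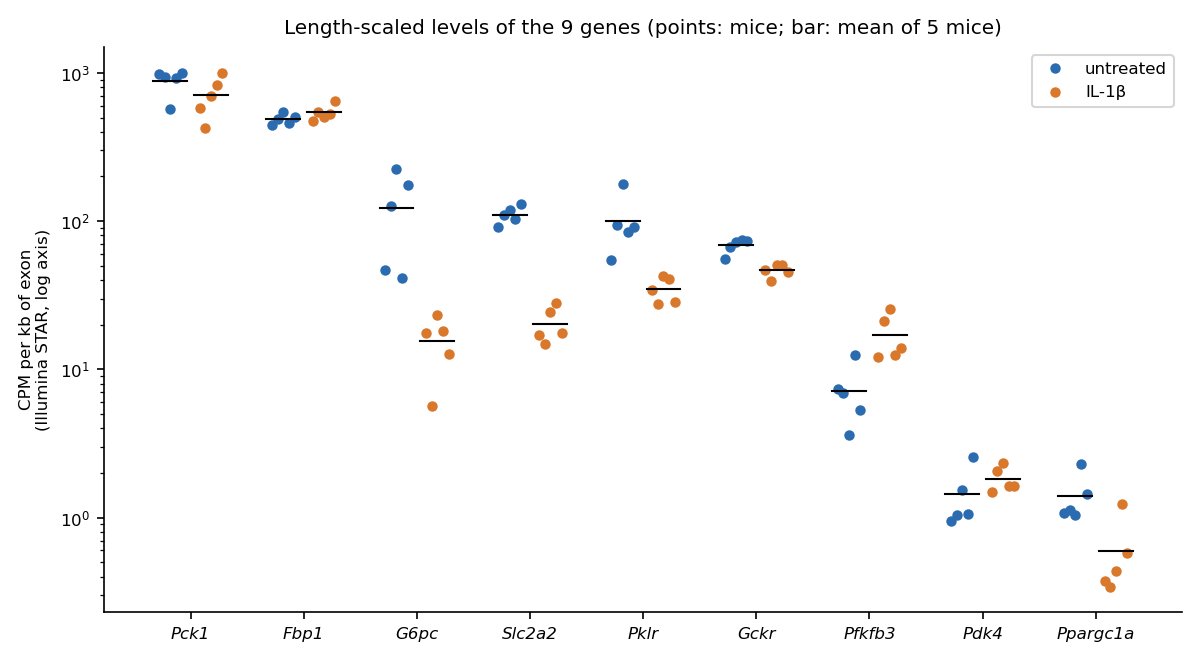
Length-scaled level of each gene (y axis, log scale, CPM per kb of exon, Illumina STAR) in untreated (blue) and IL-1β treated (orange) mice, ordered by untreated mean, with bars at the mean of 5 mice. *Pck1* (883 to 708) and *Fbp1* (488 to 541) stay at the top in both groups, whereas *G6pc* and *Slc2a2* go from 123 and 111 to 15.5 and 20.4.

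Individual mice ran through several genes. Among IL-1β treated mice, mouse ILB_9578 was lowest by normalised level for 6 of the 9 genes (*G6pc*, *Gckr*, *Pck1*, *Pklr*, *Ppargc1a* and *Slc2a2*), on both platforms with STAR. Among untreated mice, mouse UNT_9576 was highest for *Fbp1*, *G6pc* and *Pklr* and lowest for *Pck1* and *Pfkfb3*, again on both platforms. Since the libraries of a mouse share its RNA, the second platform repeats the measurement and adds no mouse.

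Of the other genes of glucose metabolism, in 7 lists drawn up by textbook role, 88 of 94 were tested, and 17 rose, 34 fell and 37 were not called, with the same call in all 6 tables for 43. The 58% called stand beside 45.7% over all tested genes (22.7% higher and 22.9% lower), and no test was made of the lists' shares. Among other gluconeogenic enzymes 1 rose and 1 fell of 5 tested (40% called). *Pcx*, the pyruvate carboxylase that supplies oxaloacetate to *Pck1*'s enzyme, had 3710 to 5825 reads in untreated and 6289 to 7301 in treated mice (log2 fold change 0.67 ± 0.113, edgeR adjusted p = 0.000185). *Slc37a4*, the transporter that brings glucose-6-phosphate to the enzyme encoded by *G6pc*, fell from 2364 to 3284 reads down to 929 to 1434 (-1.04 ± 0.129, adjusted p = 1.12e-05).

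Of 10 tested enzymes shared by glycolysis and gluconeogenesis, 6 fell and 1 rose (70% called), with a median log2 fold change of -0.55. The falls were moderate, as in *Gpi1* (-0.74 ± 0.122), the phosphoglucose isomerase, and the enolase genes *Eno1* (-0.60 ± 0.140) and *Eno3* (-0.56 ± 0.174). *Eno3* had few reads, 38 to 53 in untreated and 23 to 32 in treated mice. Among 13 glycolytic kinases and PFKFB enzymes, 5 rose and 3 fell (61.5%). *Pfkfb4*, of the same family as *Pfkfb3*, went from 1 to 14 reads up to 14 to 25 (1.34 ± 0.368, edgeR adjusted p = 0.00740), and *Hk2*, an inducible hexokinase, from 4 to 18 up to 16 to 40 (1.32 ± 0.341, adjusted p = 0.00502). Both calls rested on few reads and were lost with the rank-sum test. Of the other PFKFB genes in the list, *Pfkfb2* rose (1.32 ± 0.0952, edgeR adjusted p = 5.17e-08) and *Pfkfb1* fell (-0.75 ± 0.126, adjusted p = 0.000189). *Pfkm*, the muscle-type phosphofructokinase, fell by 1.63 on the log2 scale (SE 0.140, edgeR adjusted p = 3.28e-07).

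Around pyruvate, 7 of 12 genes of the pyruvate dehydrogenase complex and its control fell and 1 rose (66.7%). The kinase genes *Pdk2* (-1.97 ± 0.119, from 873 to 1183 reads down to 189 to 283) and *Pdk1* (-1.31 ± 0.173) fell while their relative *Pdk4* was not called. *Pdp1*, a phosphatase that acts against these kinases, rose by 1.48 ± 0.260 on the log2 scale. Its rise rested on few reads, 9 to 21 in untreated and 25 to 52 in treated mice. Of 15 genes for the entry of lactate, alanine and glycerol, 3 rose and 7 fell (66.7%). *Ldha*, a lactate dehydrogenase subunit, rose from 6078 to 7331 reads up to 14207 to 16756 (1.38 ± 0.0930), and the monocarboxylate transporter *Slc16a1* rose by 1.11 ± 0.211. *Aqp9*, the channel that admits glycerol to hepatocytes, fell by 1.20 on the log2 scale (SE 0.120), from 4911 to 6356 reads down to 1768 to 2526. Each gene named here around pyruvate and these entry steps, other than *Pdk3* and *Pdk4*, had an edgeR adjusted p of at most 0.000551.

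Of 5 tested hexose transporters other than *Slc2a2*, 2 fell and none was called higher in the Illumina STAR table (40% called). *Slc2a3*, a glucose transporter named after its values were seen, had 0 to 9 reads in untreated and 7 to 14 in treated mice there (1.19 ± 0.484, edgeR adjusted p = 0.0574) and was called higher in the other 5 tables, with log2 fold changes of 1.05 to 1.81 over all 6. *Slc2a5*, a fructose transporter, went from 66 to 96 reads down to 4 to 12 (-3.15 ± 0.254, edgeR adjusted p = 1.74e-07), and *Slc2a9*, which carries urate, fell by 1.36 on the log2 scale (SE 0.141, adjusted p = 1.95e-06). Among 28 regulators of gluconeogenic transcription 6 rose, 8 fell and 14 were not called, so that the 50% called lay near the 45.7% over all genes. *Ppargc1b*, the close relative of *Ppargc1a*, fell from 40 to 135 reads down to 2 to 20 (-2.48 ± 0.449, adjusted p = 0.000353). *Cebpb*, an inflammatory and metabolic transcription factor, rose by 1.37 ± 0.194 on the log2 scale (edgeR adjusted p = 3.85e-05), and *Crem*, which encodes cyclic AMP responsive activators and repressors, by 1.34 ± 0.171 (adjusted p = 1.54e-05).

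**Figure D5:**
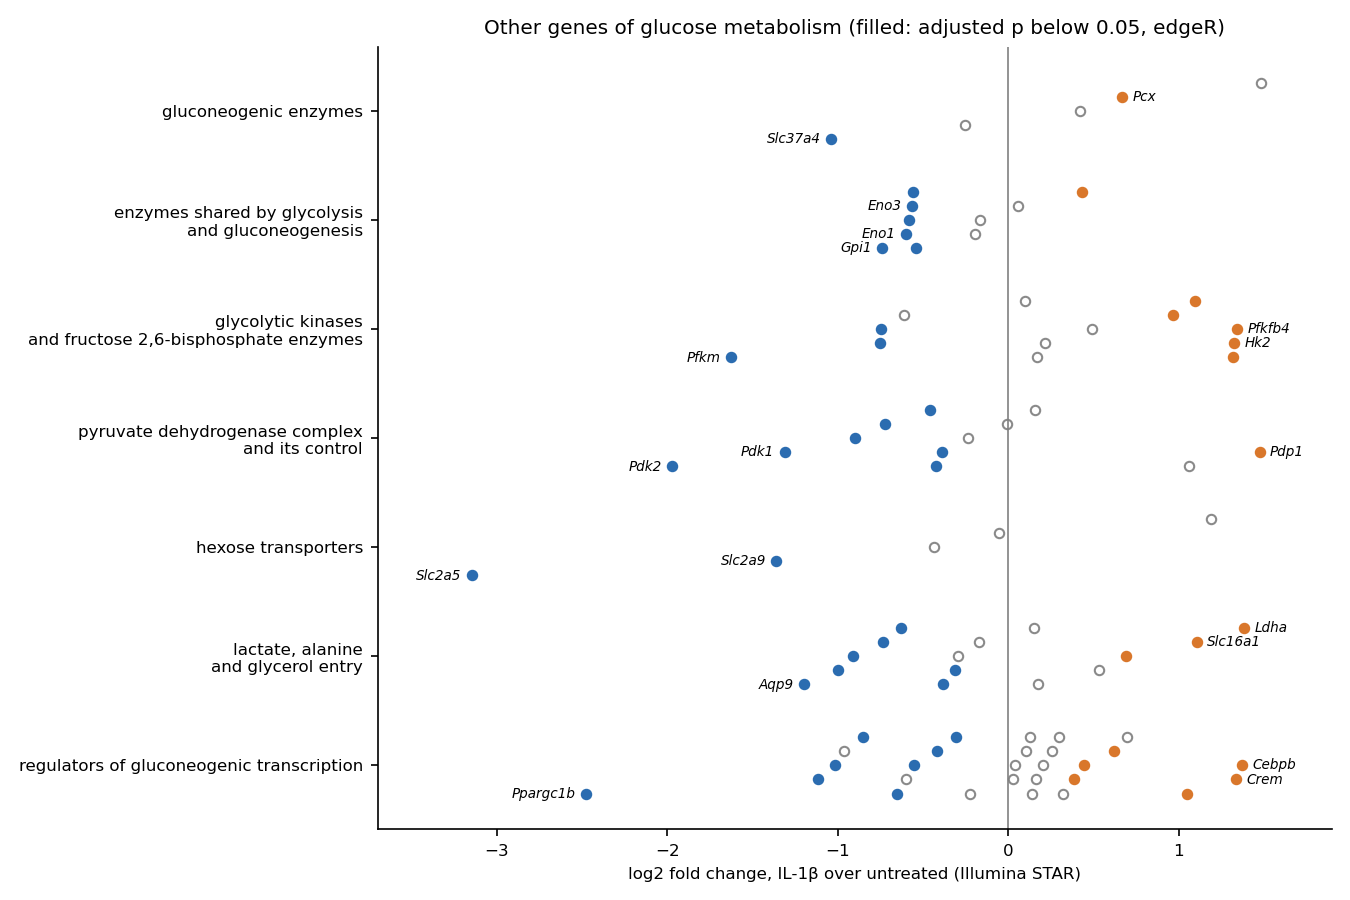
Log2 fold change of IL-1β treated over untreated (x axis, Illumina STAR) for the 88 tested genes of 7 lists of glucose metabolism (y axis, points spread vertically for legibility), orange for higher and blue for lower with an edgeR adjusted p below 0.05, open grey for not called. Named genes include *Slc2a5* at -3.15, *Ppargc1b* at -2.48, *Pdk2* at -1.97 and *Pdp1* at 1.48.

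The closest companions of each gene were sought among 7803 genes of at least 100 reads on average, by the root mean square difference between the deviations of log2(CPM + 0.5) from the untreated mean over the 10 Illumina STAR libraries. This distance is not scaled to a gene's own spread, so genes with small deviations lie close to each other by it. *Gckr* and *Fbp1* had the closest companions, *Pgm2* at 0.0742 and *Cwc15* at 0.0783 (0.181 on Ion Torrent with STAR for the pair of *Fbp1*). *Slc2a2* was nearest to *Aspa* (0.206), *Pck1* to *Cry2* (0.224), *Pdk4* to *Pppde1* (0.226), *Pklr* to *Akr1d1* (0.266), *Pfkfb3* to *Thap2* (0.314) and *Ppargc1a* to *Abca6* (0.348). No gene came nearer to *G6pc* than *Fmo2* at 0.617. On Ion Torrent with STAR the distance of the same pairs ran from 0.140 for *Gckr* to 0.574 for *Ppargc1a*.

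Markers of other cell types moved with treatment. Of 8 neutrophil markers 5 passed the filter on low counts, and all 5 rose. The 5 treated libraries alone can meet that filter, so it favours markers that are high with IL-1β, and the count is no test of the list. The summed level of the 8 markers was 2.18 to 6.98 CPM in untreated and 46.4 to 102 in treated mice. The 8 hepatocyte markers, present in every library, summed to 102688 to 120341 CPM in untreated and 71960 to 81481 in treated mice, with 2 lower (*Alb* and *Cps1*) and 1 higher (*Hnf4a*). Kupffer cell markers summed to 129 to 249 in untreated and 66.4 to 163 in treated mice (1 higher and 3 lower of 7), endothelial markers to 118 to 196 and 93.9 to 158 (2 higher and 2 lower of 7), and stellate cell markers to 238 to 321 and 153 to 251 (2 lower of 6). Cholangiocyte markers summed to 4.28 to 7.81 and 8.47 to 14.0 (2 higher of 4) and lymphocyte markers to 1.46 to 3.40 and 0.753 to 1.61 (1 lower of 3 tested). No list had a marker at 0 in all libraries. The part of these shifts in the values above was not tested.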

How the data were processed

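Liver RNA of 5 IL-1β treated and 5 untreated mice was sequenced on 2 platforms. The authors aligned reads to mm9 (NCBIM37) with STAR 2.5.1b, GSNAP 2015-12-31 or STAR plus Bowtie2 2.2.9, versions being those of the submitters' processing notes. They removed ribosomal and mitochondrial reads, evened library depths within a table by drawing reads at random in PORT, and deposited whole read counts per Ensembl gene. Such drawing discards reads of deeper libraries, which raises the counting error of low genes such as *Ppargc1a* and *Pdk4*. Whether counting used strand is not given in the sources used here.

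Groups came from the labels, and treatments were compared only within a table. Deposited counts were fitted in edgeR 4.0.16 (R 4.3.3; TMM factors 0.920 to 1.10), with the Illumina STAR table as the main one, over 15578 genes that had 5 or more reads in 5 libraries of any table. Benjamini-Hochberg adjustment ran over all of them, calls were made at 0.05, and the SE is the absolute log2 fold change over the root of F. The scripts were tested on simulated data. Alternatives were the study's rank-sum test, DESeq2 1.42.0, limma 3.58.1 (voom), other scalings and filters, each mouse left out, and the other 5 tables. The rank-sum test used counts without TMM. The platform-by-treatment term used mouse as block, because each mouse gave RNA to both platforms. Deviations of the same mouse correlated between platforms at 0.249 to 0.736 with STAR.

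All 9 genes are named. Of each list, the text names up to 3 genes with the largest absolute change among those called in the same direction in all 6 tables, and for each of the 9 genes its nearest companion. *Hcn3*, *Pdk3*, *Pfkfb1*, *Pfkfb2*, *Slc2a3* and the 3 hepatocyte markers were named after their values were seen. The genes and lists were chosen with earlier results of these data known. Promoter windows came from RefSeq (GRCm38.p6) and were placed on NCBIM37 by exact match. Levels used exon lengths of GENCODE M1.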

Additional observations from a re-analysis of the deposited data

Results flagged for a closer look

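Across 36 groups of 5 mice (9 genes, 2 treatments, both STAR tables), 3 counts stood apart from their group by Dixon's test, and chance alone picks about 1 in 20 groups. *Ppargc1a* had 83 reads in IL-1β treated mouse ILB_9582 on Illumina, where the other 4 treated mice had 23 to 38. It had 171 reads in untreated mouse UNT_9580 on Illumina, where the other 4 had 81 to 103. *Pklr* had 7050 reads in untreated mouse UNT_9576 on Ion Torrent, where the other 4 had 2512 to 3770. In the Illumina STAR table, leaving out each mouse in turn kept both genes called, with log2 fold changes of -1.70 to -0.98 for *Ppargc1a* and -1.70 to -1.23 for *Pklr*. No mouse was left out of the treatment comparison on Ion Torrent, so the value of *Pklr* there without UNT_9576 was not computed.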

How the results depend on the processing

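Of 841 values recomputed under alternatives, 819 kept their direction and side of the threshold, 3 lost the call, 2 gained one and 17 changed sign. Each change of sign was in a value not called under either setting. *Fbp1* was -0.030 under the rank-sum test, and the rest were platform-by-treatment terms near 0, for *Fbp1* with GSNAP (-0.0078) and STAR + Bowtie2 (-0.014), for *Pdk4* with the same aligners (0.098 and 0.047), and with mice left out for *G6pc* (-0.027 to 0.095), *Fbp1* (-0.025 to 0.060), *Pklr* (-0.10 to 0.0037) and *Pdk4* (-0.15 to 0.094). The cause of the sign changes in the platform-by-treatment terms was not tested. The calls lost were under the rank-sum test, for *Pfkfb3* (1.07, adjusted p = 0.110), *Hk2* (1.15, 0.0699) and *Pfkfb4* (1.17, 0.0503). The gains were *Pdk4* without untreated mouse UNT_9584 (0.67) and *Pck1* over *Fbp1* without untreated mouse UNT_9576 (-0.68), where leaving out each mouse gave -0.68 to -0.32. Leaving out each mouse called 6 to 7 of the 9 genes and 48 to 54 of the other 88. *Pck1* ranged from -0.48 to -0.18 (edgeR adjusted p 0.0667 to 0.450) and was called in none. Without TMM the median of all genes moved to -0.10, with 2746 genes called higher and 4335 lower, beside 3541 and 3575 with it.

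Without the mouse as replicate block, the pairing of platforms was ignored and 0 of the 9 platform-by-treatment terms were called by edgeR, 0 at an unadjusted p below 0.05, with terms from -0.37 to 0.14. With the block 0 were called as well, 1 at an unadjusted p below 0.05 with each aligner. Low counts limit *Ppargc1a* and *Pdk4* most, at 12 to 171 reads per library with STAR.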
